A study of Mus musculus with 6 samples.

Results

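Transcripts of 10 genes that neutrophils use for their granules and for calprotectin (S100a8, S100a9, Ngp, Camp, Ltf, Cd177, Hp, Retnlg, Mmp8 and Lcn2) were followed through 6 droplet single-cell RNA-seq libraries labelled as 4T1. The 4T1 line comes from a mammary carcinoma of a mouse and stands in for triple-negative breast cancer in laboratory work. All 10 symbols were found among the 28649 gene names of the libraries. The genes were chosen by their levels in these same libraries, so a high level in neutrophil-like barcodes is a description and no finding. A barcode, which marks the transcripts of 1 droplet, was called S100a8/S100a9-high when S100a8 and S100a9 together made up at least 200 of 10000 of its unique molecular identifiers (UMIs, each standing for 1 captured transcript). This held for 1046 of the 41434 barcodes kept after filtering, and for 1072 of the 42902 deposited barcodes.

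The 3 control libraries (shNC) came from 4T1 cells given a non-targeting short hairpin RNA, and the 3 libraries labelled shPgk1 from 4T1 cells given a hairpin against Pgk1, a glycolytic kinase. Per the labels' protocols, both groups went through lentiviral transduction for 48 hours and puromycin at 2 ug/mL for 7 days. The series title links Pgk1 to NF-kB (p65) and to M2-like macrophages. The labels name the 4T1 line as the only cell type and give no host animal, age or time in vivo, yet barcodes with markers of immune, fibroblast and endothelial cells were present. The labels give the hairpins to 4T1 cells and say nothing of one in neutrophils. The design text calls the 3 libraries of a group biological replicates but names no animal or culture, and the p-values below can only reflect how far these libraries spread, part of which may be technical.

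Levels are given as CPM, the UMIs of a gene per 1000000 UMIs of the barcodes summed. Pgk1 itself was at 351, 341 and 313 CPM in shNC replicates 1 to 3 over all kept barcodes. It was at 324, 324 and 349 CPM in replicates 1 to 3 labelled shPgk1. The log2 fold change was 0.06 ± 0.07 (SE, edgeR quasi-likelihood test, adjusted p = 0.593). In epithelial tumour-like barcodes, the class nearest to the cells given the hairpin, Pgk1 was at 287, 244 and 218 CPM in shNC, with 245, 300 and 327 in libraries labelled shPgk1. The groups overlapped (0.37 ± 0.15, edgeR adjusted p = 0.117, unadjusted p = 0.0350). Lower Pgk1 RNA was thus not seen, and the group name is used below as a label only. Total counts per library ran from 78778073 to 128933960, and the shallowest deposited barcode held 1001 UMIs.

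Neutrophils fill their granules in a fixed order as they mature in the bone marrow: azurophil proteins at the promyelocyte stage, proteins of the specific granules (Ngp, Camp, Ltf, Lcn2) in myelocytes and metamyelocytes, and gelatinase and secretory contents later. Mature cells stop most granule transcription but keep large amounts of S100a8 and S100a9, whose products pair as calprotectin, a cytosolic protein that binds calcium, zinc and manganese. In tumour-bearing mice, 4T1 tumours are known for a strong rise of neutrophils and immature granulocytes in blood and spleen.

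Sequence before the start of 4 of the genes is shown because Ngp, Camp and Ltf were found in the same few barcodes, all 3 lie on chromosome 9, and Retnlg was spread over many more barcodes. The letters are the RefSeq promoter entries of build GRCm38.p6, from 250 bases before the start up to the last base outside the GENCODE M21 gene. Capitals mark matches on either strand to a C/EBP-like motif (TTNCNNAA) or an ETS-like motif (AGGAAG), 2 kinds of factor known to act in granulocytes. The Ngp stretch is chr9:110419558-110419746 (plus strand), the Camp stretch chr9:109849618-109849706 (minus strand), the Ltf stretch chr9:111019042-111019270 (plus strand) and the Retnlg stretch chr16:48872358-48872607 (plus strand). All 4 genes are protein-coding, and no stretch holds an exon of its own gene. By GENCODE M21, S100a8 (chr3:90668978-90670035, plus strand) and S100a9 (chr3:90692632-90695721, minus strand) are neighbours, and Hp (chr8), Cd177 (chr7), Mmp8 (chr9) and Lcn2 (chr2) lie elsewhere.
Ngp: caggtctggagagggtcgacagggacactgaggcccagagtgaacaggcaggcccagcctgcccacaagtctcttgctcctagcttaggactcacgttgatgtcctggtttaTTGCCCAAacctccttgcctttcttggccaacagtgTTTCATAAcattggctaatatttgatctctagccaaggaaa
Camp: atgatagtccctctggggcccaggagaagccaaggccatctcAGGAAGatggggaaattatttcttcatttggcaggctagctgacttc
Ltf: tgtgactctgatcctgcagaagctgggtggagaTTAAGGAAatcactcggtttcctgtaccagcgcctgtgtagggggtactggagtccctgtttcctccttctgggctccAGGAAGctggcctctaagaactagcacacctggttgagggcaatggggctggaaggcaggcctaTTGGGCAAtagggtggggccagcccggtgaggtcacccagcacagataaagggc
Retnlg: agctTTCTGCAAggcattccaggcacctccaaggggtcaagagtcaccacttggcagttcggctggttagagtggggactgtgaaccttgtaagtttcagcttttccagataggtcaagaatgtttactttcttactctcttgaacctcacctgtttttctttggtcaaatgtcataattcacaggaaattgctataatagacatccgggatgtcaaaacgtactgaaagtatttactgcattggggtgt

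Promoter entries were found for 9 of the 10 genes. Over the whole 250 bases, the C/EBP-like letters occurred in 8 of these 9 (the exception was Camp) and in 36.8% of 32851 promoter windows of the same length. The ETS-like letters occurred in 5 of 9 (S100a8, Camp, Ltf, Mmp8 and Lcn2) and in 29.5% of all windows. A TATA-like match (TATAAA) was found in S100a8 and Cd177, and in 12.4% of all windows. These matches are descriptions of letters and not evidence of a bound site.

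The S100a8/S100a9-high barcodes carried the other defining markers of neutrophils. G0s2, a lipase inhibitor abundant in mature neutrophils, lay between 1881 and 3102 CPM in them across the 6 libraries and between 2.04 and 20.4 elsewhere. Cxcr2, a chemokine receptor of mature neutrophils, lay between 290 and 420 CPM and between 0.895 and 2.72 elsewhere. Of the 1046 barcodes, 1023 fell in the single cluster that fixed markers named neutrophil-like, 8 were monocyte or macrophage-like, 6 epithelial tumour-like, 4 T or NK-like, 1 fibroblast-like and 4 unnamed. The markers that named this cluster include S100a8 and S100a9, which chose the barcodes, and Retnlg. The overlap is thus in part set by that choice and is a description only. The cluster held a further 454 barcodes under the threshold. Just inside the threshold, 72 barcodes had between 200 and 250 UMIs per 10000 of S100a8 and S100a9, and 69 of them were neutrophil-like. Just outside, 92 barcodes had between 150 and 200, and 82 were neutrophil-like. Barcode names are running numbers that start again in each library, so cells shared between libraries could not be looked for: 11389 names occur in more than 1 library.

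S100a8 and S100a9 took up the most UMIs of the 10 genes in the S100a8/S100a9-high barcodes, which they had chosen, so their levels are given with no test. S100a8 made up 65796, 76096 and 61695 CPM in shNC replicates 1 to 3 and 63861, 58629 and 53038 in the replicates labelled shPgk1. The values of the groups overlapped. S100a9 made up 79140, 80616 and 65102 CPM in shNC and 69743, 71330 and 59970 in the libraries labelled shPgk1, again with overlap.

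Genes of specific granules are given next, with no rank by level. Ngp, which encodes neutrophilic granule protein, was at 3768, 4208 and 3473 CPM in shNC replicates 1 to 3 and at 2159, 2350 and 1437 in the replicates labelled shPgk1. All shPgk1 values lay below all shNC values, and the log2 fold change was -1.01 ± 0.20 (SE, edgeR adjusted p = 0.0687), short of the 0.05 threshold. Camp, the precursor of the cathelicidin antimicrobial peptide, was at 3655, 3608 and 3000 CPM across shNC and at 1608, 1637 and 588 in the libraries labelled shPgk1. These groups did not overlap either (log2 fold change -1.50 ± 0.32, edgeR adjusted p = 0.151). Ltf, which encodes the iron-binding protein lactoferrin, was at 911, 1105 and 903 in shNC and at 1289, 711 and 477 in the libraries labelled shPgk1. Its groups overlapped because replicate 1 labelled shPgk1 was the highest of all 6 (log2 fold change -0.39 ± 0.27, edgeR adjusted p = 0.839). In that library 1 barcode held 87 of the 89 Ltf UMIs, 146 of the 149 Ngp UMIs and all 111 Camp UMIs. Its levels of these genes thus rest on 1 barcode.

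Lcn2, whose product lipocalin 2 takes up bacterial siderophores, was at 2948, 3960 and 2701 CPM across shNC and at 1753, 2355 and 1395 in the libraries labelled shPgk1. The groups did not overlap (log2 fold change -0.86 ± 0.22, edgeR adjusted p = 0.207). Hp encodes haptoglobin, a haemoglobin-binding protein that granulocytes store, and was at 1039, 1222 and 1148 in shNC and at 797, 908 and 810 in the libraries labelled shPgk1. Its groups did not overlap (log2 fold change -0.49 ± 0.17, edgeR adjusted p = 0.533). Cd177, a surface glycoprotein of neutrophils, was at 316, 394 and 371 in shNC and at 145, 252 and 204 in the libraries labelled shPgk1, with no overlap (log2 fold change -0.81 ± 0.21, edgeR adjusted p = 0.216). In replicate 1 labelled shPgk1, the same 1 barcode held 8 of the 10 Cd177 UMIs, 88 of the 121 Lcn2 UMIs and 14 of the 55 Hp UMIs. The Cd177 and Lcn2 levels of that library thus rest mostly on 1 barcode.

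The groups overlapped for Retnlg and Mmp8. Retnlg, a resistin-like gene of mature granulocytes, was at 2483, 3180 and 2770 CPM across shNC and at 2115, 2960 and 2744 in the libraries labelled shPgk1, with overlap (log2 fold change -0.16 ± 0.18, edgeR adjusted p = 0.932). Mmp8, the neutrophil collagenase, was at 159, 241 and 234 in shNC and at 101, 214 and 113 in the libraries labelled shPgk1, also with overlap (log2 fold change -0.50 ± 0.27, edgeR adjusted p = 0.750). These levels are not per transcript length, so their order does not rank the genes.

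**Figure D1:**
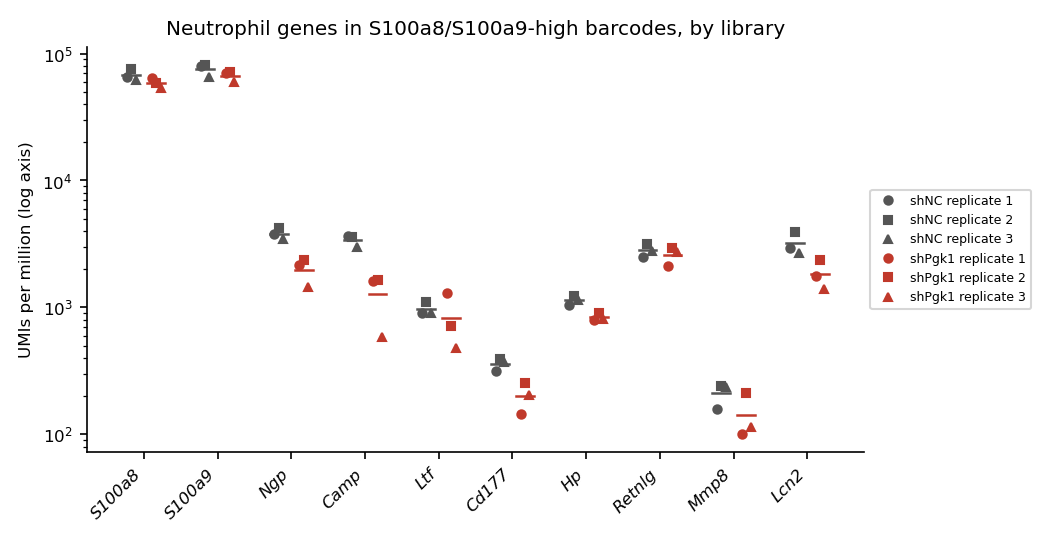
CPM (log axis) of the 10 genes in S100a8/S100a9-high barcodes; each symbol is 1 library, grey for shNC and red for libraries labelled shPgk1, and horizontal bars are means of 3. Ngp, Camp, Cd177, Hp and Lcn2 show no overlap of the groups, with Camp between 3000 and 3655 in shNC and between 588 and 1637 in libraries labelled shPgk1.

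None of the 8 genes that did not choose the barcodes passed the edgeR threshold there (0 of 8, with 5 at an unadjusted p below 0.05). Among all 4779 genes tested in these barcodes, 3 passed, or 0.0628%. DESeq2 called 13 genes, with Ngp and Camp lower among them. In 5 of the 8 genes every library labelled shPgk1 lay below every shNC library, against 5.84% of all genes tested. The median log2 fold change was -0.66 over the 8 and -0.02 over all 4779 genes. The 8 genes stayed short of the threshold when any 1 library was left out, but Ngp and Camp were called lower at a threshold of 400 per 10000, Ngp in the neutrophil-like cluster, and Ngp, Camp and Lcn2 with no filter on low counts. The test has limited reach here: the S100a8/S100a9-high barcodes of replicate 1 labelled shPgk1 numbered 31 and held 69025 UMIs, against 133 to 318 barcodes and 387743 to 941626 UMIs in the other libraries.

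The 3 genes called within these barcodes were Krt8 and Krt14, both keratins of epithelial cells, and Marf1. Krt14 stood at 13.6 ± 2.36 CPM in shNC and 58.3 ± 0.900 in libraries labelled shPgk1 (mean ± SD, n = 3 and 3; log2 fold change 2.05 ± 0.35 SE, edgeR adjusted p = 0.0421). Krt8 stood at 144 ± 15.5 and 321 ± 24.0 (log2 fold change 1.10 ± 0.19, edgeR adjusted p = 0.0421), and Marf1 at 128 ± 60.9 and 25.5 ± 5.47 (log2 fold change -2.46 ± 0.42, edgeR adjusted p = 0.0421). The summed level of the 10 epithelial tumour markers in these barcodes lay between 832 and 900 CPM in shNC and between 1376 and 1983 in libraries labelled shPgk1. Of these markers 9 were tested, 2 were higher and none was at 0. The summed fibroblast markers lay between 560 and 1148 and between 319 and 456, with 0 of 4 tested past the edgeR threshold. The part of RNA from other cells in the changes of the granule genes was not tested.

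Other genes of neutrophil maturation, in lists fixed with earlier results of these data known, gave no call in these barcodes with edgeR or with DESeq2. Of 7 genes of the specific-granule stage 5 were tested, with a median log2 fold change of -0.49 and 2 lower at an unadjusted p below 0.05. They were Chil3, a chitinase-like protein (-1.37 ± 0.50, edgeR adjusted p = 0.550), and Pglyrp1, a peptidoglycan-binding protein (-0.49 ± 0.23, edgeR adjusted p = 0.666). Chil1 of the same list went the other way, higher in every library labelled shPgk1 (0.30 ± 0.19, edgeR adjusted p = 0.807). Olfm4 (-0.86 ± 1.16) and Ly6g (-0.38 ± 0.31) had groups that overlapped. None of 6 azurophil genes had enough counts to be tested. Of 8 gelatinase and secretory genes 7 were tested (median 0.06), and Mmp25, a membrane-bound metalloproteinase, had the smallest p (-0.82 ± 0.31, edgeR adjusted p = 0.560). All 9 mature receptor genes were tested (median 0.09), led by the lectin receptor Clec4d (0.43 ± 0.18, edgeR adjusted p = 0.606). All 9 cytokine genes were tested (median 0.17), with the chemokine Cxcl3 at -1.02 ± 0.27 (edgeR adjusted p = 0.248) and the interleukin Il1a at 0.55 ± 0.25 (edgeR adjusted p = 0.634). Of 6 transcription factors 5 were tested (median 0.04), and Cebpe, the C/EBP factor of specific-granule formation, was at -1.41 ± 0.45 (edgeR adjusted p = 0.416). Of 6 proliferation genes 5 were tested, with a median of -0.69 and none at an unadjusted p below 0.05.

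The transcripts of Ngp, Camp and Ltf sat in few barcodes. When every S100a8/S100a9-high barcode was thinned at random to 1000 UMIs, 77 of the 1046 held at least 2 UMIs of Ngp, Camp and Ltf together, and these are called granule-high below. They numbered 25, 21 and 15 in shNC replicates 1 to 3 and 1, 8 and 7 in the replicates labelled shPgk1, so that the granule-high values of replicate 1 labelled shPgk1 rest on a single barcode. The score has no gap at its threshold: 58 barcodes held exactly 1 such UMI and 17 exactly 2. Granule-high barcodes were deeper than the rest, with a median of 6818 UMIs against 1741 in the other 969 and 1548 in the 454 neutrophil-like barcodes under the threshold. Their median doublet score was 0.0466 against 0.0238. Their summed epithelial tumour markers were at 1000 CPM against 1072, and their macrophage markers at 2610 against 3433.

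The granule-high barcodes held 22.1% of all UMIs of the S100a8/S100a9-high barcodes. They held 98.3% of those of Ngp, 99.6% of Camp and 98.9% of Ltf, the genes that had chosen them. The genes that had not chosen them had lower shares. For Cd177 the share was 78.3% (59.0% to 85.2% over the 6 libraries) and for Lcn2 68.9% (56.9% to 76.1%), so these neighbours overlap. S100a8 had 51.4%, Hp 44.2%, S100a9 41.3%, Mmp8 40.9% and Retnlg 39.1%. The ranges of these 5 overlapped one another, and that of S100a8 (38.2% to 60.2%) also overlapped those of Cd177 and Lcn2, as did that of Mmp8, with Hp between 22.8% and 53.9%, Mmp8 between 0 and 61.4% and Retnlg between 3.42% and 52.3%. This order is that of the pooled shares, and single libraries depart from it: in replicate 3 labelled shPgk1, Mmp8 (61.4%) stood above Lcn2 (58.8%) and Retnlg (52.3%) above S100a8 (38.2%). The lowest Mmp8 and Retnlg shares belong to the library with the single granule-high barcode.

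**Figure D2:**
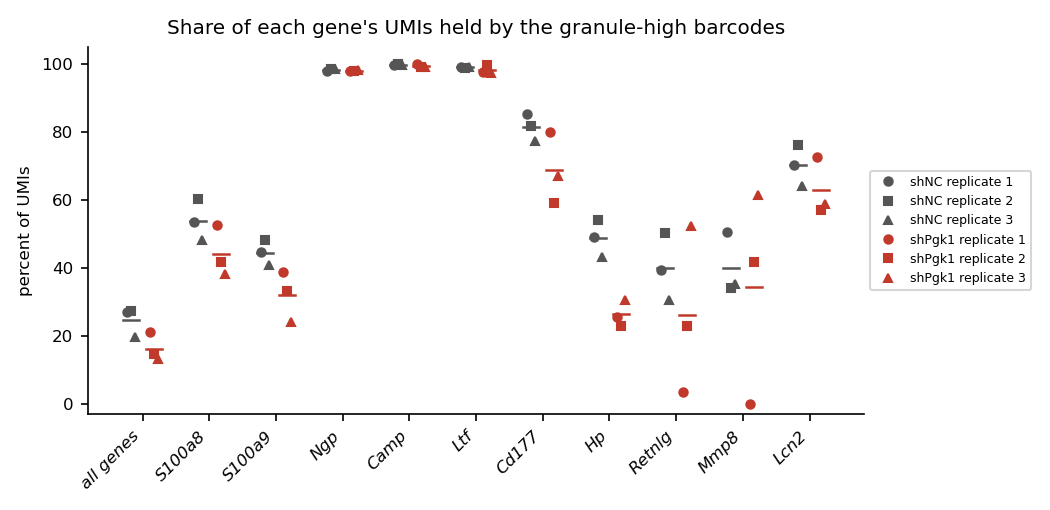
Percent of each gene's UMIs within S100a8/S100a9-high barcodes that lie in the granule-high ones; each symbol is 1 library and horizontal bars are means of 3. Ngp, Camp and Ltf, which define the barcodes, are above 97% in every library, Cd177 and Lcn2 lie between 56.9% and 85.2%, and all genes together pooled to 22.1%.

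Genes outside the list of 10 also differed in level. At 1000 UMIs per barcode, Pglyrp1 was at 3000 CPM in granule-high barcodes and 399 in the other S100a8/S100a9-high ones, and Ly6g, the surface antigen used to sort mouse neutrophils, was at 403 and 38.2. Of the same specific-granule list, Chil1 was at 312 in granule-high barcodes, on 24 UMIs, and at 376 in the others, a small gap that was not tested. Itgb2l was at 0 in both. Chil3, Olfm4 and Fcnb were higher in granule-high barcodes, on 10, 19 and 5 UMIs there. Elane and Prtn3, proteases of azurophil granules, were at 156 and 143 CPM in granule-high barcodes and at 3.10 and 8.26 in the others. These values rest on 12 and 11 UMIs in granule-high barcodes, with a median of 0 over the libraries, and the azurophil list was higher there in 3 of 6 libraries. Genes of activated mature neutrophils ran the other way: Il1b was at 1922 and 8116, Cxcl2 at 5571 and 16886, and Clec4d at 584 and 2143. The specific-granule list summed higher in granule-high than in other S100a8/S100a9-high barcodes in 6 of 6 libraries, and the list of activated cytokines in 0 of 6. Pglyrp1 gave 231 of the 320 UMIs of the specific-granule list in granule-high barcodes. These are descriptions of the same cells and carry no test.

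Detection was also read in single barcodes. Of the 1046 S100a8/S100a9-high barcodes, thinned as above, 102 held an Ngp UMI. Among these, Camp was detected in 46.1%, Ltf in 44.1%, Cd177 in 43.1% and Lcn2 in 91.2%. Among the 944 with no Ngp UMI, Camp was detected in 1.38%, Ltf in 2.12%, Cd177 in 5.72% and Lcn2 in 41.6%. Hp (76.5% against 35.3%), Retnlg (70.6% against 28.9%) and Mmp8 (29.4% against 8.37%) were also detected more often in the Ngp-positive barcodes. Detection of each of the 7 genes was higher in the Ngp-positive barcodes in 6 of 6 libraries. In replicate 1 labelled shPgk1 only 6.45% of 31 barcodes held an Ngp UMI, so its part in this count rests on very few barcodes.

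The share of granule-high barcodes among the S100a8/S100a9-high ones was 7.86%, 9.29% and 7.94% in shNC replicates 1 to 3. It was 3.23%, 5.37% and 5.26% in the replicates labelled shPgk1. The groups did not overlap (8.36 ± 0.805% against 4.62 ± 1.21%, mean ± SD, n = 3 and 3). The difference of -3.74 percentage points had p = 0.1 in a two-sided exact permutation test, the smallest that 3 libraries against 3 can give. Wilson 95% intervals, which cover counting error only, were wide (5.38% to 11.3% in shNC replicate 1, 0.572% to 16.2% in replicate 1 labelled shPgk1). Outside the neutrophils, the same score was reached by between 0.0539% and 0.104% of epithelial tumour-like barcodes, at median depths between 8326 and 15856 UMIs before thinning, and by between 0 and 0.110% of monocyte or macrophage-like ones, at median depths between 12696 and 17427. Ltf, which is part of the score, had UMIs in both classes. Without thinning, Ngp was detected in 15.5 ± 1.75% of S100a8/S100a9-high barcodes in shNC and 9.03 ± 2.75% in libraries labelled shPgk1, and with thinning in 11.1 ± 0.758% and 6.59 ± 1.40%.

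The S100a8/S100a9-high barcodes as a whole were also a smaller part of the libraries labelled shPgk1. They numbered 318, 226 and 189 in shNC replicates 1 to 3 and 31, 149 and 133 in the replicates labelled shPgk1. As a share of kept barcodes this was 4.21%, 3.70% and 2.83% against 0.472%, 2.05% and 1.83%. The groups did not overlap, and the difference of -2.13 percentage points had p = 0.1 (two-sided exact permutation test, n = 3 and 3). Because every deposited barcode holds at least 1001 UMIs and these barcodes had median depths of only 1588 to 1900 UMIs per library, neutrophils below that depth were not analysed here and the share depends on that limit.

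**Figure D3:**
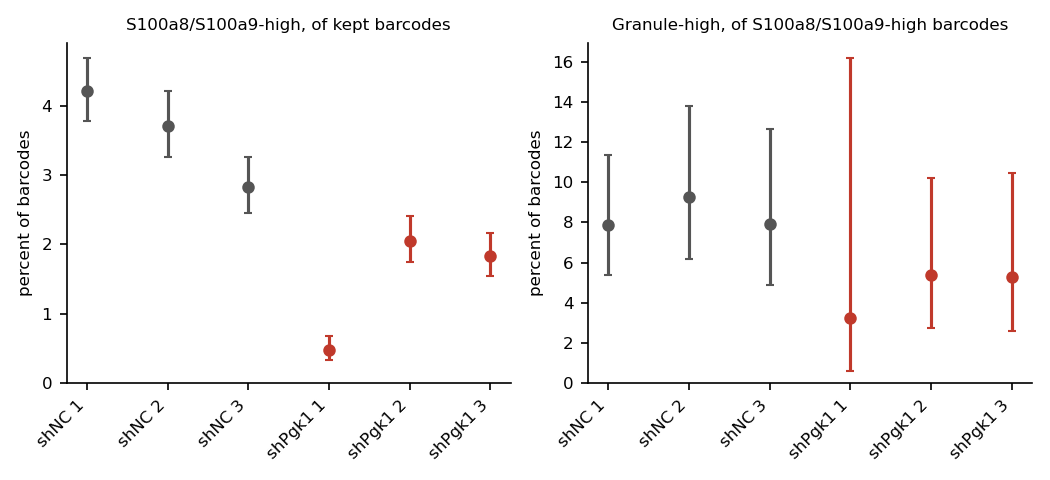
Percent of kept barcodes that are S100a8/S100a9-high (left) and percent of those that are granule-high (right), by library, with Wilson 95% intervals for counting error. All 3 libraries labelled shPgk1 lie below all 3 shNC libraries in both panels, and the interval of replicate 1 labelled shPgk1 in the right panel spans 0.572% to 16.2%.

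The levels were also split by this score. In the barcodes that were not granule-high, Hp was at 769 ± 42.9 CPM in shNC and 739 ± 87.4 in libraries labelled shPgk1 (mean ± SD, n = 3 and 3). Retnlg was at 2211 ± 165 and 2254 ± 650 there, and Cd177 at 88.9 ± 21.7 and 78.2 ± 42.0. These 3 overlapped between the groups. Lcn2 and Ngp did not. Ngp was at 84.0 ± 16.5 and 47.9 ± 15.9, and Lcn2 was at 1207, 1302 and 1203 CPM across shNC and at 605, 1188 and 661 in libraries labelled shPgk1. Within granule-high barcodes, Camp was at 13456, 13188 and 15319 CPM across shNC and at 7669, 11190 and 4485 in libraries labelled shPgk1, with no overlap. Ngp (15450 ± 1948 and 12275 ± 3147), Lcn2 (9184 ± 1714 and 7214 ± 1768), Hp (2282 ± 348 and 1433 ± 469) and Ltf (3975 ± 629 and 4824 ± 1221) overlapped there. These values have no test, since the split was made from Ngp, Camp and Ltf and 1 library rests on 1 barcode.

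Outside the S100a8/S100a9-high barcodes, the same genes were found at low levels in every large class of cells. The spread between classes differed by gene. Over the 6 largest classes in shNC, the highest mean was 16.4 times the lowest for Mmp8, 10.2 times for Hp and 9.28 times for Lcn2. It was 2.84 times for Ltf, 2.75 for Cd177, 1.92 for Camp and 1.56 for S100a8. In shNC, Ngp ranged from 7.31 CPM in epithelial tumour-like to 8.88 in unnamed barcodes over the 6 largest classes, a ratio of 1.22. Retnlg ranged from 5.65 to 6.63 CPM (ratio 1.17), and S100a9 from 147 to 188 (ratio 1.28). Differences between the classes were not tested for these genes, and Ngp in T or NK-like barcodes alone ran from 4.29 to 9.31. In libraries labelled shPgk1 the ratio was 2.23 for Ngp, 2.77 for Retnlg and 1.57 for S100a9. It was 21.1 for Camp, 10.3 for Ltf and 7.52 for Cd177 there. Counts were low: Ngp had 20, 184 and 92 UMIs outside the S100a8/S100a9-high barcodes of these libraries.

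Among these classes outside the S100a8/S100a9-high barcodes, Lcn2 was highest in epithelial tumour-like ones, at 509, 331 and 401 CPM in shNC, with 430, 425 and 419 in libraries labelled shPgk1. T or NK-like barcodes had 44.6 ± 11.4 CPM in shNC. Of all Lcn2 UMIs in kept barcodes, 68.3 ± 8.51% in shNC and 88.3 ± 0.784% in libraries labelled shPgk1 lay in epithelial tumour-like barcodes. The S100a8/S100a9-high barcodes held 14.0 ± 6.42% and 1.65 ± 1.23% of them. For Ngp the S100a8/S100a9-high barcodes, with 0.878 ± 0.118% of all kept UMIs in shNC and 0.249 ± 0.162% in libraries labelled shPgk1, held 81.6 ± 1.64% and 86.1 ± 2.00% of the UMIs.

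Hp stood at 71.3 ± 23.1 CPM in monocyte or macrophage-like and 83.4 ± 56.6 in fibroblast-like barcodes of shNC, against 8.14 ± 2.17 in T or NK-like ones. The fibroblast values ran from 22.4 to 134 between libraries, so the order of the first 2 classes is within their spread. Among the classes outside the S100a8/S100a9-high barcodes, Mmp8 was highest in monocyte or macrophage-like ones, at 7.12, 15.3 and 14.2 CPM in shNC. These held 61.5 ± 1.93% of its UMIs. All other large classes had at most 3.59 ± 1.89. Ltf ran from 2.31 ± 0.220 CPM in fibroblast-like to 6.54 ± 0.872 in epithelial tumour-like barcodes.

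**Figure D4:**
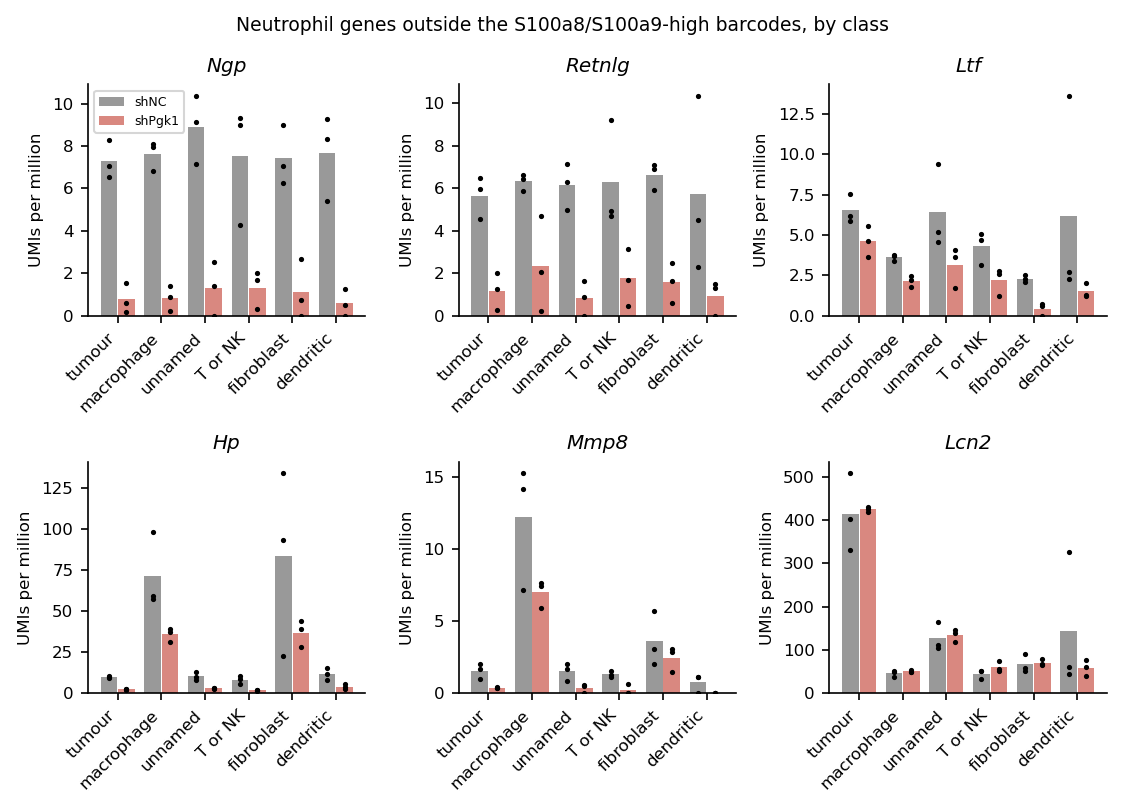
CPM of 6 of the genes outside S100a8/S100a9-high barcodes, in the 6 largest classes; bars are means of 3 libraries (grey shNC, red libraries labelled shPgk1) and dots are single libraries. In shNC, the highest class means of Ngp and Retnlg are 1.22 and 1.17 times the lowest. In libraries labelled shPgk1 their highest class means are 2.23 and 2.77 times the lowest. Hp stands out in macrophage-like and fibroblast-like barcodes, Mmp8 in macrophage-like ones and Lcn2 in tumour-like ones.

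Outside the S100a8/S100a9-high barcodes, 7 of the 10 genes were lower and 1 was higher in libraries labelled shPgk1 (edgeR, adjusted p below 0.05), against 15.7% of all 19486 genes tested. Of those called genes, 1753 were higher and 1305 lower, or 1021 and 1855 with library totals and no TMM factors. All 10 genes had groups that did not overlap, 9 of them lower, against 25.3% of all genes lower in every library labelled shPgk1. The median log2 fold change was -1.71 over the 10 and -0.05 over all genes. S100a8 and S100a9 are among the 7 called lower. They also set the upper limit of these barcodes, so their values and calls there are descriptions only.

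Camp had the largest fall. It was at 5.37, 5.08 and 4.95 CPM across shNC and at 0.242, 0.847 and 0.282 in libraries labelled shPgk1 (log2 fold change -3.42 ± 0.44 SE, edgeR adjusted p = 0.0193). Ngp was at 7.84, 8.46 and 6.49 and at 0.187, 1.64 and 0.741 (-3.07 ± 0.60, edgeR adjusted p = 0.0262). S100a8 was at 151, 143 and 129 and at 17.4, 46.7 and 38.7 (-1.97 ± 0.33, edgeR adjusted p = 0.0215). In all 3 genes replicate 1 labelled shPgk1, the library with the fewest S100a8/S100a9-high barcodes, was the lowest.

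S100a9 (-1.86 ± 0.50, edgeR adjusted p = 0.0489), Hp (-1.56 ± 0.20, edgeR adjusted p = 0.0193), Mmp8 (-1.31 ± 0.31, edgeR adjusted p = 0.0378) and Cd177 (-1.13 ± 0.31, edgeR adjusted p = 0.0478) also fell. Retnlg was at 5.41, 6.86 and 6.37 CPM across shNC and at 0.326, 2.08 and 2.29 in libraries labelled shPgk1, and missed the threshold (-1.91 ± 0.57, edgeR adjusted p = 0.0623). Ltf was at 4.46, 5.49 and 4.61 and at 2.72, 3.75 and 4.14 (-0.38 ± 0.17, edgeR adjusted p = 0.158).

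Lcn2 rose. It was at 215, 148 and 190 CPM across shNC and at 242, 292 and 273 in libraries labelled shPgk1 (0.61 ± 0.15, edgeR adjusted p = 0.0379). Barcodes outside mix many classes, and within the epithelial tumour-like class, where most Lcn2 lay, the log2 fold change was 0.18 ± 0.16 (edgeR adjusted p = 0.426) and the groups overlapped. Epithelial tumour-like barcodes numbered 1922, 1857 and 2585 in shNC, with 2896, 3474 and 3319 in libraries labelled shPgk1.

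The calls outside rest on all libraries together. Of the 8 calls, 0 were left without replicate 3 labelled shPgk1, 1 (Camp) without replicate 2 labelled shPgk1, 1 (Hp) without shNC replicate 2 and 3 (S100a8, Camp and Hp) without shNC replicate 3. Without shNC replicate 1, 6 were left, and without replicate 1 labelled shPgk1 there were 9, Retnlg being added. No gene changed direction. With no filter on low counts, S100a8, Camp, Cd177 and Hp were called lower. At a threshold of 400 per 10000, or with all deposited barcodes, S100a9 and Cd177 were no longer called. Lcn2 was called higher in these 3 settings.

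**Figure D5:**
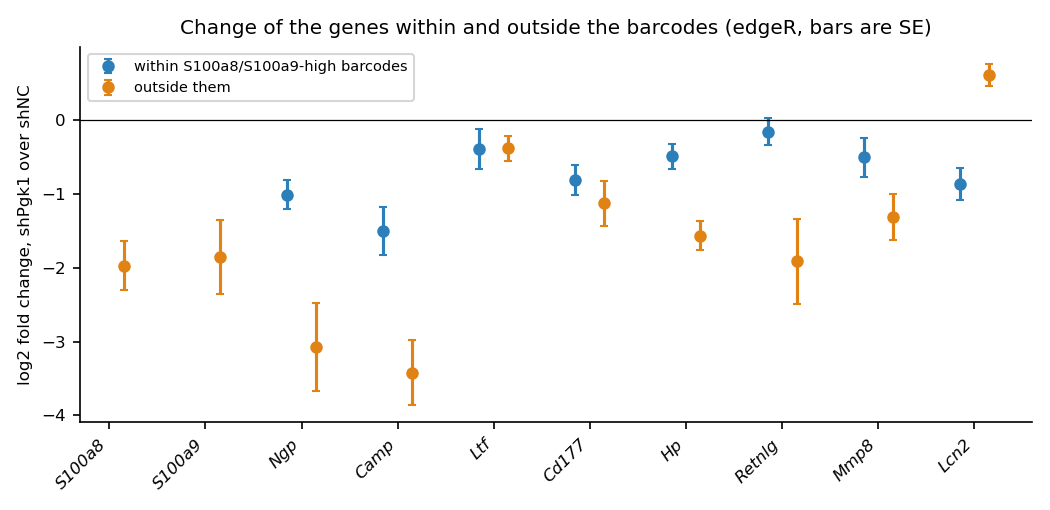
Log2 fold change of libraries labelled shPgk1 over shNC (edgeR, bars are SE) within S100a8/S100a9-high barcodes (blue) and outside them (orange). S100a8 and S100a9 chose both sets of barcodes. They are shown only outside, where the threshold caps their level, as a description. Ngp is at -1.01 within and -3.07 outside, and Lcn2 at -0.86 within and 0.61 outside.

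The change within the S100a8/S100a9-high barcodes differed from that outside for 5 of the 8 genes (interaction term of edgeR with library as a term, adjusted p below 0.05), against 0.454% of 17399 genes. The difference, within minus outside on the log2 scale, was 2.04 ± 0.33 (SE) for Ngp, 1.75 ± 0.25 for Camp, 1.77 ± 0.24 for Retnlg and 0.88 ± 0.23 for Hp. For Lcn2 it was -1.68 ± 0.22. The median over all genes was -0.21. The term comes from a joint fit of both sums of every library with its own TMM factors. It therefore need not equal the subtraction of the 2 changes fitted separately. Ltf (-0.25 ± 0.23), Cd177 (0.05 ± 0.27) and Mmp8 (0.71 ± 0.28) did not pass. Camp, Retnlg and Lcn2 passed with any 1 library left out. Ngp did not pass without replicate 3 labelled shPgk1 (largest adjusted p = 0.0722), and Hp did not without shNC replicate 1, shNC replicate 3, or replicate 2 or 3 labelled shPgk1 (largest adjusted p = 0.720). Mmp8 passed without replicate 1 labelled shPgk1 (edgeR adjusted p = 0.0373).

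Over all kept barcodes, 7 of the 10 genes were lower (S100a8, Ngp, Camp, Ltf, Cd177, Hp and Mmp8) and Lcn2 was higher, against 16.7% of 19518 genes called by edgeR (1844 higher and 1406 lower, or 1090 and 1940 with no TMM factors). Camp was at 36.8, 41.2 and 28.0 CPM across shNC and at 1.28, 6.90 and 2.11 in libraries labelled shPgk1 (-3.29 ± 0.59, edgeR adjusted p = 0.0211). Ltf was at 12.3, 16.5 and 11.5 and at 3.55, 6.37 and 5.61 (-1.30 ± 0.23, edgeR adjusted p = 0.0211). Lcn2 was at 0.44 ± 0.12 (edgeR adjusted p = 0.0455), and at 0.37 with no TMM factors (adjusted p = 0.0671). Fewer neutrophils and less RNA per neutrophil cannot be told apart in these sums. Without replicate 3 labelled shPgk1 no gene was called, without replicate 2 labelled shPgk1 only Camp, and without shNC replicate 2 only Hp. With no filter on low counts, Ltf, Hp and Mmp8 were called lower and Lcn2 higher.

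In epithelial tumour-like barcodes, taken with the 6 S100a8/S100a9-high ones among them, Ngp, Camp, Hp and Mmp8 were lower and none higher, against 8.02% of 16268 genes (495 higher and 810 lower, or 129 and 2092 with no TMM factors, which moved the median of all genes from -0.03 to -0.18). Hp was at 10.6, 9.73 and 9.30 CPM across shNC and at 2.56, 2.49 and 2.16 in libraries labelled shPgk1. The groups did not overlap, and the fall (-1.90 ± 0.13, edgeR adjusted p = 0.000583) was called with any 1 library left out. Mmp8 was at 1.00, 2.02 and 1.67 and at 0.358, 0.358 and 0.409 (-1.88 ± 0.30, edgeR adjusted p = 0.0206). Without replicate 3 labelled shPgk1, or without shNC replicate 2, Hp alone was called.

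Monocyte or macrophage-like barcodes, a comparison added after seeing the data, gave S100a8, Ngp and Camp lower, against 0.578% of 15581 genes called by edgeR. S100a8 was at 179, 160 and 157 CPM across shNC and at 29.6, 53.4 and 51.9 in libraries labelled shPgk1 (-1.93 ± 0.21, edgeR adjusted p = 0.0214). These barcodes were also taken under the S100a8/S100a9 threshold, so the S100a8 call is a description only. Hp was at 97.9, 57.1 and 58.9 and at 30.9, 37.5 and 39.2 (-1.04 ± 0.20, edgeR adjusted p = 0.0751). Mmp8 was at 7.12, 15.3 and 14.2 and at 7.64, 5.92 and 7.43, where the groups overlapped (-0.85 ± 0.30, edgeR adjusted p = 0.209). Without replicate 3 labelled shPgk1, or without shNC replicate 2, Camp alone was called.

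Ratios between genes differed by class. In S100a8/S100a9-high barcodes, Ltf stood to Ngp at 0.242, 0.263 and 0.260 in shNC and at 0.597, 0.302 and 0.332 in libraries labelled shPgk1. In epithelial tumour-like barcodes the ratio was 0.831, 0.909 and 0.946 in shNC, with 19.4, 2.97 and 9.30 in libraries labelled shPgk1. In fibroblast-like barcodes of shNC it was 0.357, 0.232 and 0.368. In monocyte or macrophage-like barcodes it was 0.423, 0.461 and 0.542 in shNC, with 8.50, 1.71 and 2.54 in libraries labelled shPgk1. In T or NK-like barcodes it was 0.545, 0.525 and 0.727 in shNC, with 4.0, 1.29 and 1.67 in libraries labelled shPgk1. The ratio in tumour-like, macrophage-like and T or NK-like barcodes was above that of the S100a8/S100a9-high barcodes of the same library in all 6 libraries. Retnlg stood to S100a8 at 0.0412, 0.0560 and 0.0586 in tumour-like barcodes of shNC and at 0.0377, 0.0418 and 0.0449 in S100a8/S100a9-high ones. The S100a8/S100a9-high ratio of 0.597, in replicate 1 labelled shPgk1, rests almost wholly on 1 barcode. The tumour-like ratio of Ltf to Ngp in libraries labelled shPgk1 rests on 10, 109 and 44 Ngp UMIs, and the macrophage-like ratio on only 8, 35 and 28. The source of these UMIs was not tested.

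The level outside the S100a8/S100a9-high barcodes was also taken as a percent of the level over the whole library. It was 36.4%, 33.2% and 40.0% for Ltf in shNC, with 76.7%, 58.9% and 73.8% in libraries labelled shPgk1. For Cd177 it was 24.6 ± 4.28% and 51.7 ± 18.6%, for Lcn2 86.8 ± 6.39% and 98.6 ± 1.08%, and for Ngp 18.6 ± 1.63% and 14.0 ± 2.03% (mean ± SD, n = 3 and 3). These 4 did not overlap between the groups, each with p = 0.1 in a two-sided exact permutation test, or 0.25 adjusted over the 10 genes. For the other 6 the groups overlapped. With 3 libraries against 3 this test cannot go below 0.1.

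Across 54 sums (9 classes in 6 libraries) and 5614 genes, the profile of Ngp was most like that of Camp (Pearson r = 0.992 on log2 of CPM with 5 added), Retnlg (0.987) and S100a8 (0.979), followed by Wfdc21 and Ltf (both 0.978). S100a8 was most like S100a9 (0.984), Ngp (0.979), Retnlg (0.971), G0s2 (0.967) and Wfdc21 (0.962). Lcn2 had other neighbours: Il23a (0.889), Osgin1 (0.862), Lamb3 (0.855), Ltf (0.840) and Slpi (0.820). The sums share libraries and differ in depth, and these coefficients are descriptions.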

How the data were processed

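Droplet single-cell RNA was measured in 6 libraries (3 shNC, 3 labelled shPgk1), grouped by their titles. The authors deposited 1 matrix of UMI counts, not normalized, for each library, written with PISA 0.12 per the file headers. The submitters' processing notes name Seurat 4 and a human build, while the gene names are mouse. For the counts, the build, the annotation, the aligner and the handling of multi-mapped reads were not given in the sources used here.

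A barcode was left out below 500 UMIs or 300 genes, or with over 20% of UMIs from mitochondrial genes (643 in all). Scrublet scores (scanpy 1.11.5) above 0.25 left out a further 825, since Scrublet's own threshold marked 276. Clustering (2000 variable genes, 30 components, 15 neighbours, leidenalg 0.10.2, resolution 0.5) gave 15 clusters, named from fixed markers. Clusters named from monocyte or from macrophage markers form 1 class. CPM values were computed from the summed counts.

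Sums per library and set of barcodes went into the quasi-likelihood test of edgeR 4.0.16 (R 4.3.3) with TMM factors and filterByExpr, adjusted by Benjamini-Hochberg over all genes, with a threshold of 0.05. DESeq2 1.42.0, no TMM factors, other thresholds and filters, a replicate term and leaving out each library were alternatives. Shares used exact permutation tests. No 2 libraries were repeat deposits (chi-square per degree of freedom at least 24.1 for every pair). The edgeR script was tested on simulated data. All 10 genes are named within and outside the S100a8/S100a9-high barcodes, only part of them in the other comparisons, and up to 4 genes per list by smallest p. The genes, lists and thresholds were chosen with earlier results of these data known.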

Additional observations from a re-analysis of the deposited data

Results flagged for a closer look

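For 5 genes the change between the groups differed within and outside the S100a8/S100a9-high barcodes, by the interaction term of edgeR over 6 libraries. The difference, within minus outside on the log2 scale, was 2.04 for Ngp (adjusted p = 0.000505), which was at -1.01 within and -3.07 outside. It was 1.75 for Camp (adjusted p = 8.8e-09), at -1.50 and -3.42. It was 1.77 for Retnlg (adjusted p = 1.06e-09), at -0.16 and -1.91, and 0.88 for Hp (adjusted p = 0.0280), at -0.49 and -1.56. Lcn2 went the other way, at -0.86 within and 0.61 outside, with an interaction term of -1.68 (adjusted p = 2.11e-10). The terms come from a joint fit with its own TMM factors, so they do not equal the subtraction of the separately fitted changes. All 6 libraries enter both sums, and the share of S100a8/S100a9-high barcodes was lower in every library labelled shPgk1, whose part in these differences was not tested.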

How the results depend on the processing

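Within S100a8/S100a9-high barcodes 3 genes were called. The count was 6 at a threshold of 400 per 10000, 13 with DESeq2, 47 with no filter on low counts, 1 in the neutrophil-like cluster, 0 at up to 5000 UMIs and 0 to 12 with 1 library left out. Outside, 3058 calls became 4655 with DESeq2 and 3 to 5068 with 1 library left out. Over all kept barcodes 3250 became 3 to 5173, and the 79 differing changes 45 to 137. In epithelial tumour-like barcodes 1305 became 2881 with DESeq2, 2221 with no TMM factors and 6 to 4119. In monocyte or macrophage-like barcodes 90 became 596 with DESeq2 and 15 to 496, alternatives chosen after seeing the data. Fewer libraries are tested when 1 is left out. The cause of the other differences was not tested.

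Same-numbered libraries correlated between -0.10 and 0.11 in their deviations from their group means. With 3 libraries per group this cannot show whether the replicate numbers pair the libraries. With the replicate block, 10 genes were called within S100a8/S100a9-high barcodes, with Ngp, Camp and Lcn2 lower, 536 in tumour-like and 58 in macrophage-like barcodes. Outside, 2485 were called, and S100a9, Mmp8 and Lcn2 missed the threshold (Lcn2 at an edgeR adjusted p of 0.0510). Over all kept barcodes, S100a8, Ngp and Lcn2 missed it. In tumour-like barcodes Retnlg was added, and in macrophage-like ones Ngp was lost.

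Directions turned in few cases. Cd177 within S100a8/S100a9-high barcodes was at 0.24 at up to 5000 UMIs. With 1 library left out, the difference of changes of Ltf ranged from -0.63 to 0.19 and Lcn2 in macrophage-like barcodes from -0.041 to 0.18. For the level outside relative to the library, the group difference in percentage points with 1 library left out ran from -1.07 to 4.94 for S100a8, from -0.362 to 2.35 for S100a9 and from -2.05 to 1.41 for Camp, with -0.12 and -1.27 also below 0. With only barcodes under 50 per 10000, S100a9 was at -0.79 and Camp at -0.65. The shares of S100a8/S100a9-high and granule-high barcodes kept their direction in every alternative run. The granule-high values of replicate 1 labelled shPgk1 rest on 1 barcode.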
